A study of Mus musculus with 2 samples.

Results

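Mir107, Mir103-1 and Mir103-2 are the mouse genes of the miR-103 and miR-107 family and lie in introns of the 3 pantothenate kinase genes Pank1, Pank3 and Pank2, and Mir33 lies in an intron of Srebf2. These 4 genes were taken by their GENCODE M21 symbols and matched by Ensembl gene identifier, out of 2202 microRNA genes counted. The libraries came from the gastrocnemius, a limb muscle of mixed fibre types, of male B6CASTF1/J mice aged 2 months. B6CASTF1/J mice are hybrids with one C57BL/6J parent and one CAST/EiJ parent. The series holds 1 group with no treatment named, as 2 libraries of RNA inserts under 30 nt labelled biological replicates 1 and 2. The labels number the animals separately but give both the same donor entry, so nothing beyond the animal numbers shows that the libraries come from separate mice.

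Pantothenate kinases catalyse the first committed step of coenzyme A synthesis, and coenzyme A carries the acyl groups of fatty acid and carbohydrate metabolism. SREBP-2, the product of Srebf2, is the transcription factor that switches on cholesterol synthesis and uptake. An intronic microRNA on the strand of its host is usually cut from the host transcript. miR-33 is known for repressing the cholesterol exporter ABCA1, and miR-103 and miR-107 for their link to insulin sensitivity in liver and fat.

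All 4 genes matched a RefSeq entry of the GRCm38.p6 assembly, with the same coordinates and letters as in GENCODE M21. The hairpins are printed to show where the 3 family members are alike. Capitals mark the mature microRNAs, with the 5p arm first and the 3p arm second.
Mir103-1: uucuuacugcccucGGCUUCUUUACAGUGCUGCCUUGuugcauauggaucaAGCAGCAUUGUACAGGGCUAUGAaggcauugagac
Mir103-2: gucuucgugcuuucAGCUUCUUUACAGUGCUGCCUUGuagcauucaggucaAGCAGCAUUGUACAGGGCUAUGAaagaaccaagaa
Mir107: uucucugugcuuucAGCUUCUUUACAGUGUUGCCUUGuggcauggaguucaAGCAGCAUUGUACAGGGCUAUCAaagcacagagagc
Mir33: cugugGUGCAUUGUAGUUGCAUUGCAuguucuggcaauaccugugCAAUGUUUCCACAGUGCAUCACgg

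The mature microRNAs are given again with the seed, bases 2 to 8 counted from the 5′ end, in capitals, since the seed sets which messenger RNAs a microRNA pairs with.
miR-103-3p: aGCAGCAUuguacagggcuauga
miR-107-3p: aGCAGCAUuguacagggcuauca
miR-103-1-5p: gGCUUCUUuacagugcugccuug
miR-103-2-5p: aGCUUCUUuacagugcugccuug
miR-107-5p: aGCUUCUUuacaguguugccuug
miR-33-5p: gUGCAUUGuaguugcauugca
miR-33-3p: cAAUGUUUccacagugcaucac

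miR-103-3p has the same 23 bases in Mir103-1 and Mir103-2, so a read of it matches both genes. It differs from miR-107-3p by 1 base, G22C with miR-103-3p as the reference, and the first 21 bases are common to all 3 genes. The 5p arms differ by 1 base between the miR-103 genes (G1A from Mir103-1 to Mir103-2) and by 1 base between Mir103-2 and Mir107 (C16U). The 3p seed and the 5p seed of the family each occur in these 3 genes and in no other gene of the RefSeq microRNA table. No other gene of the table has the seed of miR-33-5p or of miR-33-3p.

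The longest stretch shared by Mir103-1 and Mir103-2 was 27 bases, and Mir107 shared 24 with each of them. Of the windows of 21 bases along each hairpin, 10 of 66 in Mir103-1, 13 of 66 in Mir103-2 and 7 of 67 in Mir107 also occurred in another of the 2202 microRNA genes. Mir33 shared none of its 49 windows, and at most 8 bases in a row with any of the other 3 genes. In Mir103-1 and Mir103-2 all windows that lie wholly within miR-103-3p were shared. In Mir107 only the first window of miR-107-3p was shared, because the later ones hold the base that differs.

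**Figure D1:**
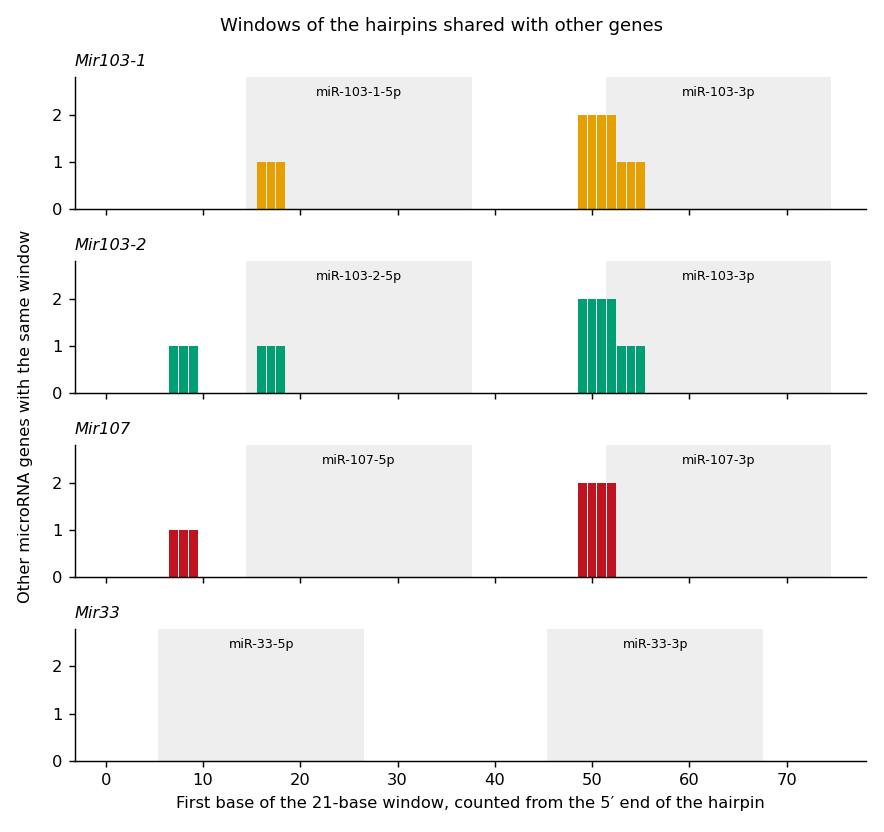
Each bar stands at the first base of a 21-base window of a hairpin (x axis, bases from the 5′ end), and its height is the number of other microRNA genes that hold the same window. Grey bands mark the mature arms. Bars of height 2 at bases 49 to 52 mark windows common to Mir103-1, Mir103-2 and Mir107, and Mir33 has no bar.

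In the mm10 assembly with GENCODE M21, Mir107 (ENSMUSG00000065594.1) lies at chr19:34820687-34820773 on the minus strand, in intron 5 of 6 of the principal Pank1 transcript, 326 bases past the upstream exon. Mir103-1 (ENSMUSG00000065553.1) lies at chr11:35782396-35782481 on the plus strand, in intron 5 of 6 of Pank3. Mir103-2 (ENSMUSG00000065563.1) lies at chr2:131288052-131288137 on the plus strand, in intron 5 of 6 of the principal Pank2 transcript. The 3 family members thus occupy the intron of the same number in their paralogous hosts. Mir33 (ENSMUSG00000065465.1) lies at chr15:82198122-82198190 on the plus strand, in intron 16 of 18 of the principal Srebf2 transcript, 335 bases past the upstream exon. Each lies on the strand of its host, and the host transcripts themselves were not measured in these libraries.

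Counts assigned to microRNA genes totalled 638779 in replicate 1 and 2272132 in replicate 2. Reads that matched several places were 75.2% and 74.4% of all reads. The deposited tables hold them in a row of their own and in no gene. Levels are therefore counts per 1000000 assigned microRNA counts (CPM). A count of 0 allows up to 3 counts, which is 4.70 CPM in replicate 1 and 1.32 CPM in replicate 2, for reads that match 1 place. Intervals are exact Clopper-Pearson 95% intervals. They and this limit cover counting error only, not differences between animals or library preparations. PCR copies of a molecule were not told apart, so even counting error may be understated. Of the 9 striated muscle markers, 9 were detected, led by Mir206 (20325 CPM in replicate 1 and 48078 CPM in replicate 2). The binomial test described below sets the 2 libraries against counting error alone. It called 40.5% of all genes tested, 23.2% higher in replicate 2 and 17.4% lower. Of the 9 muscle markers, it called 4 higher in replicate 2 and did not call 5. Those 5 are the listed miR-1 and miR-133 genes, from Mir1a-2 (261 and 269 CPM) down to Mir133a-2 (9.39 and 4.84 CPM). Each shares 20 or more bases with another microRNA gene, so its count is uncertain. Endothelial Mir126a was also called higher in replicate 2 (81286 and 129798 CPM). The smooth muscle markers Mir143 (120222 and 79407 CPM) and Mir145a (2846 and 2044 CPM) and the erythroid markers Mir451a (5465 and 4110 CPM) and Mir144 (711 and 577 CPM) were called lower. Of 4 leukocyte markers, 2 were called higher and 1 lower. Liver Mir122 had 15.7 and 29.9 CPM and islet Mir375 had 3.13 and 5.72 CPM, neither called. The part of these markers in the members' levels was not tested. In bulk tissue, fewer cells of a type and less RNA per cell cannot be told apart.

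Mir107 was the one member with a substantial count. It had 81 counts in replicate 1, or 127 CPM (95% interval 101 to 158), and 294 counts in replicate 2, or 129 CPM (115 to 145). The mean was 128 ± 1.83 CPM (SD, n = 2). The libraries lay close together, each inside the interval of the other. By mean level Mir107 stood at position 131 of the 2202 genes, at 135 in replicate 1 and 130 in replicate 2. Of all genes, 94.1% had a lower mean.

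Mir103-2 had 3 counts in replicate 1, or 4.70 CPM (0.969 to 13.7), and 8 counts in replicate 2, or 3.52 CPM (1.52 to 6.94). Its mean was 4.11 ± 0.831 CPM (SD, n = 2), position 301. It passed the level called detected here, 2 CPM in both libraries, on few counts. That level lies below the limit of 3 counts in replicate 1 (4.70 CPM), and Mir103-2 stood at that limit there.

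Mir103-1 had 0 counts in replicate 1 and 1 count in replicate 2, or 0.440 CPM (0.0111 to 2.45). Both values lie under the limit of 3 counts, so no ratio is given. The counts of Mir103-1 and Mir103-2 leave out any read of the mature miR-103-3p they share, and they are no measure of how abundant miR-103-3p was.

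Mir33, whose product represses cholesterol export, had 1 count in replicate 1, or 1.57 CPM (0.0396 to 8.72), and 7 counts in replicate 2, or 3.08 CPM (1.24 to 6.35). Its mean was 2.32 ± 1.07 CPM (SD, n = 2), position 332. It did not reach 2 CPM in replicate 1 and so was not called detected. At the level of replicate 2, 1.97 counts would fall in replicate 1, so the single count seen there is within counting error of it. No window of Mir33 recurred in another microRNA gene, and copies elsewhere in the genome were not searched.

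**Figure D2:**
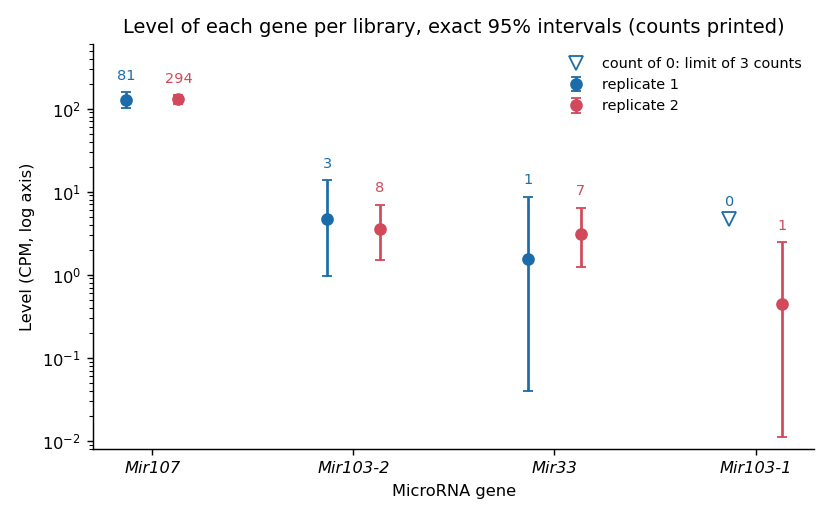
Level of each gene in CPM (log y axis) in replicate 1 (blue) and replicate 2 (red), with exact 95% intervals as bars and the counts printed above them. The open triangle is the limit of 3 counts (4.70 CPM) for Mir103-1 in replicate 1, which had 0 counts. Mir107 lies near 128 CPM in both libraries, and the values of the other 3 genes lie below 5 CPM.

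The order by CPM was Mir107, Mir103-2, Mir33 and Mir103-1 in both libraries. The place of Mir107 was the one that stood clear of its neighbour by the counting intervals in both libraries. It had 27.0 times the counts of Mir103-2 in replicate 1 (95% interval 8.92 to 134) and 36.8 times in replicate 2 (18.4 to 85.9). Against Mir33, it had 81 counts to 1 in replicate 1, a ratio with an interval of 14.1 to 3238, and 42.0 times the counts in replicate 2 (20.1 to 105). Mir103-2 and Mir33 did not differ beyond their spread, since 4.11 ± 0.831 and 2.32 ± 1.07 CPM overlap. Mir33 and Mir103-1 (0.22 ± 0.31 CPM) did not overlap in this way, but their counting intervals overlapped in both libraries.

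The annotated genes are 86 bases long for Mir103-1 and Mir103-2, 87 for Mir107 and 69 for Mir33. On a scale of counts per base of gene, rescaled to sum to 1000000, Mir107 had 110 ± 2.27, Mir103-2 had 3.56 ± 0.698, Mir33 had 2.51 ± 1.17 and Mir103-1 had 0.19 ± 0.27 (SD, n = 2). On this scale Mir33 (3.34) stood above Mir103-2 (3.06) in replicate 2, so the order of these neighbours is not fixed. A read of a microRNA spans the mature molecule, whatever the length of the annotated hairpin.

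Mir107 gave nearly all counts assigned within the family of miR-103 and miR-107. Of 84 family counts in replicate 1, 96.4% (89.9 to 99.3%) were assigned to Mir107, and of 303 in replicate 2, 97.0% (94.4 to 98.6%). The mean share was 96.7% ± 0.425 (SD, n = 2). Mir103-2 had 3.57% of the family counts in replicate 1 (0.743 to 10.1%) and 2.64% in replicate 2 (1.15 to 5.14%). The family summed to 132 ± 1.31 CPM. These shares describe reads that matched 1 place, and reads of miR-103-3p as annotated lie outside them. The tables do not say which arm a count came from.

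**Figure D3:**
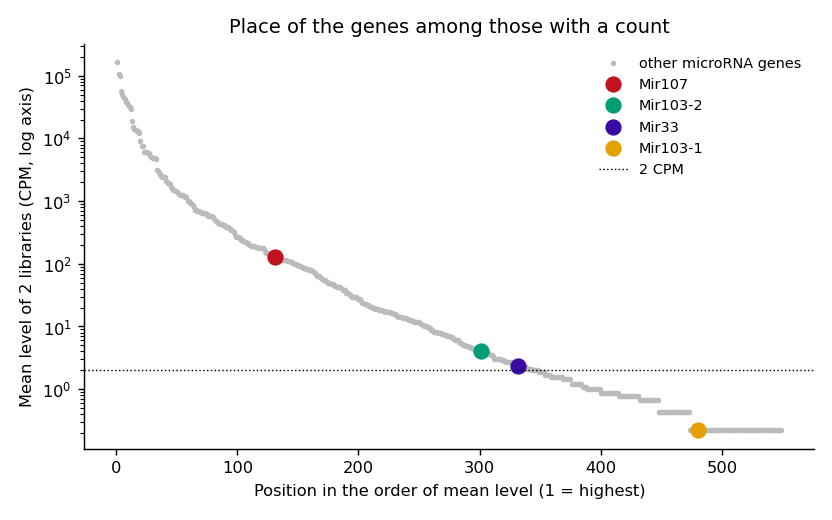
Mean CPM of the 2 libraries (log y axis) against position in the order of mean level, for genes with at least 1 count, with ties in alphabetical order. Mir107 stands at position 131, Mir103-2 at 301 and Mir33 at 332, while Mir103-1 lies among genes with a single count in replicate 2. The dotted line marks 2 CPM.

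Detection was also counted by whether a gene has a sequence copy. Of the 1087 microRNA genes that share 20 bases or more with a microRNA gene elsewhere, 6.90% were detected, while both libraries gave 0 counts for 89.7%. Of the 1115 without such a match, 20.4% were detected, and both libraries gave 0 counts for 60.8%. Mir103-1, Mir103-2 and Mir107 belong to the first class and Mir33 to the second. Of the 969 microRNA genes inside a protein-coding gene on the same strand, as all 4 members are, 138 (14.2%) were detected. Over all 2202 genes the share was 13.8%. Among the 969, Mir107 was one of the 58 highest by mean CPM. The part of shared sequence in the level of any member was not tested.

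Between the libraries the tested members did not differ beyond counting error. An exact two-sided binomial test compared replicate 2 with replicate 1 for the 311 genes with at least 10 counts, with Benjamini-Hochberg adjustment over all of them. It called 126, or 40.5%, of which 72 (23.2% of those tested) were higher in replicate 2 and 54 (17.4%) lower, or 57 and 64 with TMM scaling. It called 0 of the 2 members tested. The test compares these 2 libraries with counting error, not mice or conditions. Mir107 had a replicate 2 over replicate 1 ratio of 1.02 (95% interval 0.795 to 1.32), a log2 ratio of 0.023 and an adjusted exact p of 0.966. With TMM scaling its log2 ratio was -0.038, so it had no fixed direction. The missed threshold does not show that the libraries were equal. Mir103-2 had a ratio of 0.750 (0.180 to 4.39) and an adjusted exact p of 0.894. Its interval is too wide to show any but a large difference.

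Mir33, with 8 counts in all, was not tested. Its ratio was 1.97 with a counting interval of 0.253 to 88.7. The unadjusted exact p was 0.901 for Mir107 and 0.715 for Mir103-2. An exact test in edgeR, which sets each gene against the common dispersion of the libraries, called 4 of the 311 genes, none of them a member, and 22 genes had an unadjusted p under 0.05. That dispersion was estimated from the same 2 libraries the test compares, so by construction it calls few genes, and it says nothing on how stable the members are. With scaling by library totals, Mir107 was among the 13 of 311 tested genes with the log2 ratios nearest to 0. The counting interval of its ratio, 0.795 to 1.32, is too wide to fix that place.

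**Figure D4:**
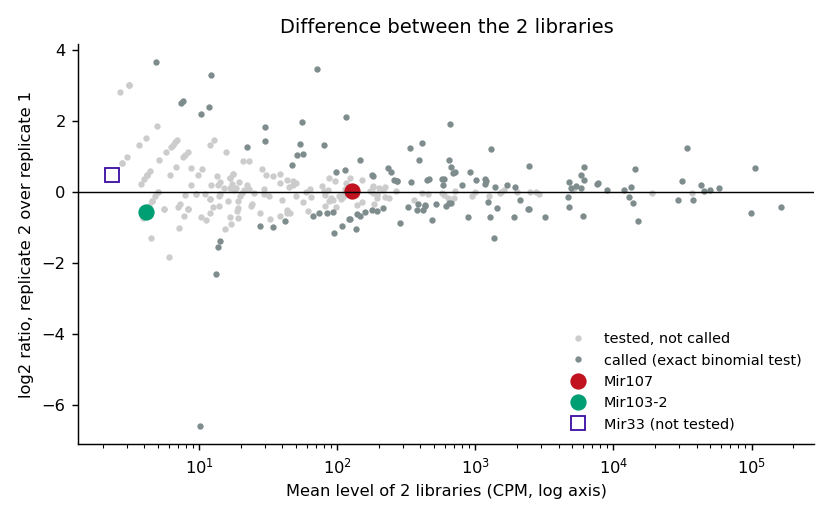
Log2 ratio of replicate 2 over replicate 1 (y axis) against mean CPM (log x axis) for the 311 tested genes, with called genes in dark grey. Mir107 lies at 0.023 and Mir103-2 at -0.55, both among genes not called, and the open square is Mir33, which was not tested. Mir103-1 is left out because its counts lie under the limit.

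The opposite-strand column held 0 counts for all 4 genes in both libraries. Their unstranded counts were equal to their same-strand counts, so no member lost a read to ambiguity between strands.

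The genes nearest to Mir107 in level were Mirlet7f-1 (78 and 289 counts) and Mir708 (83 and 282 counts). They lay 0.0593 and 0.0691 away, as Euclidean distance of log2(CPM + 1) over the 2 libraries. Both also have 20 or more bases in common with another gene. Nearest to Mir103-2 were Mir3064 (3 and 9 counts) and Mir3100 (3 and 7 counts). Nearest to Mir33 were Mir1943 and Mir6945, with 2 and 6 counts each, and nearest to Mir103-1 among detected genes were Mir135b and Mir702, with 2 and 5 counts each, at a distance of 2.35. With 2 libraries, likeness of this kind is likeness of level.

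The family is often grouped with miR-15, miR-16, miR-195, miR-322, miR-497 and miR-503, known as repressors of cell cycle genes, because their 5′ ends are alike. Bases 1 to 7 of miR-107-3p are the seed of miR-15a, miR-15b, miR-16, miR-195a, miR-195b, miR-322 and miR-497a, so the shared letters sit 1 base further from the end in those. The seeds of miR-503-5p and miR-497b differ from theirs. A few are printed, with bases 2 to 8 in capitals, to be read against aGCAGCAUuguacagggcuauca.
miR-16-5p: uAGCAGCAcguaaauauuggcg
miR-195a-5p: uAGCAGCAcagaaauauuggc
miR-322-5p: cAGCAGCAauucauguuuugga
miR-503-5p: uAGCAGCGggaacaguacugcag

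Most of these relatives had more assigned counts than Mir107. Of the 10 genes of this group in the tables, 8 were detected, beside 13.8% of all genes counted. Of the 10, 7 lay above Mir107 per base of gene in both libraries. Mir322 led with 8806 CPM in replicate 1 and 9198 in replicate 2, followed by Mir195a with 7031 and 8170. Mir15a had 1661 and 1224 CPM, Mir16-1 had 1312 and 1459, and Mir497 had 989 and 988. Mir16-2 had 243 and 301 CPM, Mir15b had 200 and 189, and Mir503, the one detected relative below Mir107, had 51.7 and 48.4. Mir195b and Mir497b had 0 counts. Mir16-1 and Mir16-2 share their mature miR-16-5p, as the miR-103 genes share theirs, and are read as uncertain. The count of Mir107 is uncertain too, since reads of the first 21 bases of miR-107-3p also match both miR-103 genes and are not in it.

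Several relatives differed between the libraries by the exact binomial test, which called 40.5% of all genes tested (23.2% higher and 17.4% lower). Of 8 relatives tested, 4 were higher in replicate 2 (Mir322, Mir195a, Mir16-1 and Mir16-2) and Mir15a was lower, with a median log2 ratio of 0.030 against 0.039 over all genes tested. Mir195a was 1.16-fold higher (95% interval 1.12 to 1.20) and Mir15a was at 0.737-fold (0.687 to 0.792). Mir497 (632 and 2246 counts), Mir15b and Mir503 were not called. With TMM scaling, 1 was higher (Mir195a) and 1 lower (Mir15a), and edgeR's exact test called none of the 8. Whether Mir107 differed from these genes in its ratio was not tested.

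**Figure D5:**
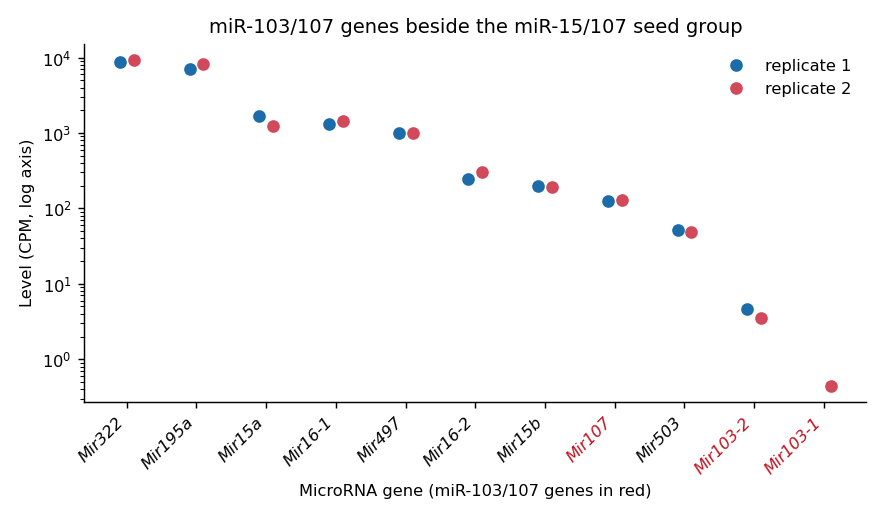
Level in CPM (log y axis) of the miR-103 and miR-107 genes (names in red) and of the miR-15 group relatives with a count, as 1 point for each library. Mir322 and Mir195a lie highest, Mir107 lies between Mir15b and Mir503, and Mir103-1 has no point for replicate 1, where it had 0 counts.

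Beside other microRNAs linked to metabolism, Mir107 was neither among the highest nor at the limit of detection. In a list of 20 microRNA genes linked to lipids and cholesterol, 18 were detected, beside 13.8% of all genes counted. Of the 20, 13 lay above Mir107 by mean CPM, and 11 lay above it per base of gene in both libraries. Mir378a led with 163450 ± 33686 CPM (SD, n = 2), followed by Mir10b with 12003 ± 404 and Mir27b with 4674 ± 318. Of 18 tested, the binomial test called 3 higher in replicate 2 and 6 lower, beside 40.5% called over all genes, and edgeR's exact test called 0. Their median log2 ratio was -0.077 against 0.039 over all genes. In a list of 10 genes linked to insulin and glucose, 9 were detected, led by Mir126a (105542 ± 34303 CPM), Mir143 (99814 ± 28860 CPM) and Mir29a (5969 ± 1928 CPM). Of 9 tested, the binomial test called 2 higher in replicate 2 and 3 lower, or 1 of 8 higher and 3 lower with unstranded counts, and edgeR's exact test called 0. Their median log2 ratio was -0.14. Mir378a and Mir27b have a stretch of 20 or more bases in common with another gene, so their counts are uncertain.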

How the data were processed

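MicroRNA sequencing was deposited as 1 table per library. The authors deposited unnormalized read counts for each microRNA gene, on mm10 with the GENCODE M21 annotation, per the file headers of the texts deposited with the tables. Aligner and counter: not given in the sources used here. The tables have no column names. The third column was read as same-strand because it holds the larger total over genes, and was used throughout. Rows that name no gene were left out of library sizes: unmapped reads (5.97% and 6.93% of all reads in replicates 1 and 2), multi-mapping reads (75.2% and 74.4%) and reads with no feature (1.62% and 2.48%).

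CPM is counts divided by the library's total over genes, times 1000000. Log2 ratios use a prior count of 0.5. The binomial test, its threshold of 0.05 and its minimum of 10 counts are as in the report. The test was checked on simulated counts whose only noise was counting error. That check does not cover differences between animals or library preparations. Shared sequence was sought on both strands among the GENCODE sequences of the 2202 genes. RefSeq sequences (GRCm38.p6) matched 1032 of the 2202 by symbol. Effects of CAST alleles on matching were not analysed here.

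The members and lists were chosen with earlier results of these data known. Named genes are the members, the 2 nearest in level to each, the 3 highest detected genes of each list, and the miR-15 group relatives. Cell type markers are named as a check of the tissue. Alternatives were unstranded counts, other totals, gene length, TMM and DESeq2 scaling, other prior counts and minimums, edgeR's exact test, and each library left out. Scaling and the dispersion came from edgeR 4.0.16 and DESeq2 1.42.0 in R 4.3.3, and all else from scipy 1.17.1, numpy 2.4.6, pandas 2.3.3 and matplotlib 3.10.9 in Python 3.11.15.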

Additional observations from a re-analysis of the deposited data

How the results depend on the processing

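Levels moved with the total they were divided by. With unstranded counts the mean level of Mir107 was 183 CPM and that of Mir103-2 5.87 CPM, as the total over genes was then 447110 and 1591442. Without Mir378a in the total, Mir107 had 153 CPM. Divided by gene length it had 110. Per 1000000 of all reads, Mir107 had 21.4, Mir103-2 had 0.689 and Mir33 had 0.384. The log2 ratio of Mir107 was -0.038 with TMM scaling, with an adjusted binomial p of 0.947, and its adjusted p lay between 0.947 and 1 under the alternatives. With a prior count of 2 the log2 ratio of Mir33 was -0.25 in place of 0.49. The 126 genes called became 4 with edgeR's exact test, whose noise is estimated from the libraries it compares, and between 114 and 126 under the other alternatives. They split into 72 higher and 54 lower in replicate 2, and into 57 and 64 with TMM scaling, which moved the median log2 ratio by -0.060. No member was called under any of these alternatives. With either library alone, Mir107 lay at 127 or 129 CPM, Mir103-2 at 4.70 or 3.52, Mir33 at 1.57 or 3.08, Mir103-1 at 0 or 0.440, and the share of Mir107 in the family at 96.4 or 97.0%. No paired analysis was possible because there is 1 group. Mir33 and both miR-103 genes had 8 counts or fewer in each library, so their values carry wide counting intervals.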
